A study of Homo sapiens with 4 samples.

Results

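Basement membrane genes, 6 in number, were followed through 2 lists of mutated bases recovered with PARP1 from HK-2 cells: COL18A1, COL15A1, HSPG2, AGRN, NID1 and NID2. They were chosen by name, as the collagens that carry glycosaminoglycan chains, the large heparan sulfate proteoglycans and the nidogens, and each was found in the lists by its Ensembl gene identifier. They are 6 of 20704 annotated genes that either list names, and they hold 117 of the 166248 listed bases of IP 1 and 156 of the 229782 of IP 2. HK-2 is an immortalised epithelial line from human kidney proximal tubule. RNA was recovered from its lysate on beads with a Flag antibody in 2 PARP1 immunoprecipitations (IP 1 and IP 2), beside 2 inputs of the same line. The labels name no other treatment, no control IP and no crosslinking, and they do not describe the tagged protein or its level. The inputs were not analysed here, so the amount of each transcript in the cells and its recovery with PARP1 cannot be told apart. The same holds, in bulk samples, for fewer cells and less RNA per cell.

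The basement membrane is the sheet of matrix under an epithelium. Laminin and collagen IV each assemble into a network, nidogens bind both, and perlecan, agrin and collagen XVIII add heparan sulfate chains that bind growth factors. In the kidney such sheets lie under every tubule and between both cell layers of the glomerular filter. PARP1 is a nuclear enzyme that adds ADP-ribose chains to proteins, above all at DNA breaks, and the series title places the study on PARP1 and matrix genes in tubular cells.

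A listed base is a single base on 1 strand of GRCh38 at which sequenced fragments (tags) carried a substitution, deletion or insertion. Each has the number of tags over it and the number of mutated tags, both as the authors counted them. A base on the strand of its gene is called a sense site here, and a base is called shared when both lists hold it on the same strand. Most sites rest on little: the median over each whole list was 2 tags, and 82.7% of the sites of IP 1 and 83.3% of IP 2 had 2 tags with both mutated. The tags over all listed bases summed to 419675 in IP 1 and 572870 in IP 2, and IP 2 listed 1.38 times as many bases. The labels do not say whether IP 1 and IP 2 used different cultures, and their spread may therefore be technical. The 95% intervals given are exact (Clopper-Pearson) and cover counting error only, because amplified tags without molecular identifiers are not independent molecules. They also count adjoining deleted bases as separate, and so are too narrow where 1 deletion spans several bases. With 2 lists and neither a control IP nor an analysed input, no test between conditions was possible, and all values are descriptions. Of 14 markers of renal and proximal tubule epithelium, 9 were named in both IPs (64.3%, against 55.4% of all protein-coding genes), with PAX8 at 23 and 21 sense sites, while the tubule genes ANPEP, AQP1 and SLC5A2 were at 0 in both. Of 3 endothelial markers 2 were named in both IPs (66.7%), PECAM1 with a shared base. Of 4 fibroblast markers 1 was named in both; PDGFRA, PDGFRB and COL1A1 had 1 or 2 sense sites in IP 1 alone, and DCN was at 0 in both. Both immune markers (PTPRC and CD68) had 0 sense sites. The share of markers named in both lists thus did not set the labelled cell type apart from endothelium.

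All 6 genes were named in both IPs, where 55.4% of all 19951 protein-coding genes were. A sense base shared by the IPs was found in 4 of the 6, against 14.1% of protein-coding genes. These backgrounds are for genes of every length, and the 6 are long: their median span was 99.0 kb, against 27.1 kb over all protein-coding genes. Among genes of like span (10 bins of 1995 genes), 84.4% were named in both IPs and 28.9% had a shared sense base in the bin of COL18A1, COL15A1 and HSPG2. These shares were 80.1% and 21.6% in the bin of both nidogens, and 67.8% and 14.5% in that of AGRN. Being named in both lists was thus common for genes of this length. The number of sense sites varied more: the 6 held 105 in IP 1 and 126 in IP 2, with a median of 17.0 and 23.0 a gene against 1 in each IP over all protein-coding genes.

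**Figure D1:**
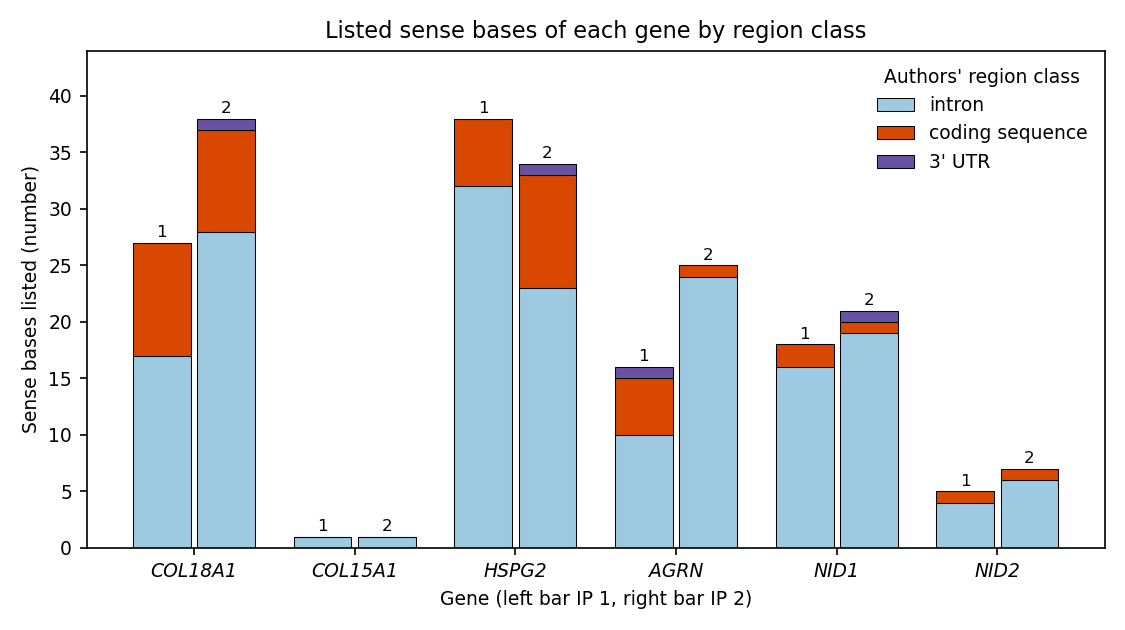
Number of listed sense bases (vertical axis) of each gene, left bar IP 1 and right bar IP 2, split by the authors' region class into intron, coding sequence and 3′ UTR. HSPG2 has 38 and 34, COL18A1 27 and 38, and COL15A1 1 in each.

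COL18A1 (ENSG00000182871.14, chr21:45405137-45513720, plus strand, 109 kb) encodes the core of collagen XVIII, whose C-terminal fragment is endostatin. IP 1 listed 27 sense sites in it and IP 2 listed 38. These are 2.49 and 3.50 per 10 kb, the 94.5th and 97.7th percentile of its span bin, where the median gene had 8 and 9. Its most repeatable feature was a run of deleted bases in coding sequence. The 9 bases from chr21:45504512 to 45504520 were listed as deleted in both IPs, with 4 of 4 tags mutated at each base in IP 1 and 3 of 4 in IP 2. They lie in exon 33 of 41 of the principal transcript and are the 3 whole codons 1122 to 1124 of 1519, in the collagenous part of the coding sequence. The sequence around them is shown because it is a repeat, with the deleted bases in capitals (29 bases, GRCh38, chr21:45504502-45504530, plus strand, from the GENCODE transcript):

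COL18A1 exon 33: cggcccccccGGCCCCCCAggccccccag

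Of the 9 deleted bases 8 are G or C, and 6 are C. All 9 match the 9 bases that follow them, and 8 of 9 match the 9 bases before, so a deletion of 9 bases could be placed at more than 1 position in this stretch. The lists name the same 9 in both IPs. Whether the repeat bears on this listing was not tested.

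That run is 9 of the 10 bases of COL18A1 shared by the IPs. The other is a substitution in intron 1 (chr21:45461954), with 2 of 2 tags mutated in each IP. Deleted bases numbered 15 in IP 1 and 27 in IP 2, beside 10 substitutions in each. As separate deletions they were 5 and 11, fewer than the substitutions in IP 1 and about level with them in IP 2. Counting adjoining deleted bases once left 17 and 22 sites, at the 84.4th and 88.1st percentile of the span bin. Coding sequence held 10 of the 27 sites in IP 1 and 9 of the 38 in IP 2, and the 9 deleted bases are nearly all of these. The remaining exonic site of IP 1 was a substitution in exon 7 (chr21:45477819, codon 539) with 3 of 16 tags mutated. In IP 2 it was a substitution in the 3′ UTR (chr21:45512738) with 7 of 15 mutated, the most mutated tags of any COL18A1 site there. Neither was listed in the other IP.

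COL18A1 has several transcript starts, and its sites were not limited to the body of the principal transcript. That transcript starts at chr21:45455489, which leaves 50.4 kb of the annotated gene upstream, and 1 of 5 coding transcripts starts there. In the upstream stretch 10 sense sites were listed by IP 1 and 13 by IP 2, none of them exonic, or 1.99 and 2.58 per 10 kb. Within the 58.2 kb of the principal transcript there were 17 and 25, or 2.92 and 4.29 per 10 kb. With adjoining deletions counted once the upstream stretch held 8 in each IP and the principal span 9 and 14.

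The 3′ end of COL18A1 runs into SLC19A1, the reduced folate carrier gene, on the opposite strand (20149 bases of overlap). The overlap held 11 (IP 1) and 15 (IP 2) sense sites of COL18A1, and 7 and 6 of SLC19A1. In each IP 9 of the COL18A1 sites were the single coding deletion, so these numbers do not rank the genes. Both genes were thus listed in the overlap, where a sense site is by definition on the strand of its gene. The antisense gene COL18A1-AS2 had 1 site in IP 1 and 0 in IP 2, and COL18A1-AS1 had 0 in both.

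COL15A1 (ENSG00000204291.10, chr9:98943179-99070792, plus strand, 128 kb) encodes collagen XV, the closest relative of collagen XVIII. It was the least listed of the 6, with 1 sense site in IP 1 and 1 in IP 2. The first was a substitution in intron 2 (chr9:98982501) and the second a substitution in intron 7 (chr9:99001930), each with 2 of 2 tags mutated. At 0.0784 sites per 10 kb in each IP it stood at the 20.1st and 14.7th percentile of the span bin it shares with COL18A1 and HSPG2. No exonic base and no base in both lists was found for it, and IP 2 listed 3 bases on its opposite strand.

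**Figure D2:**
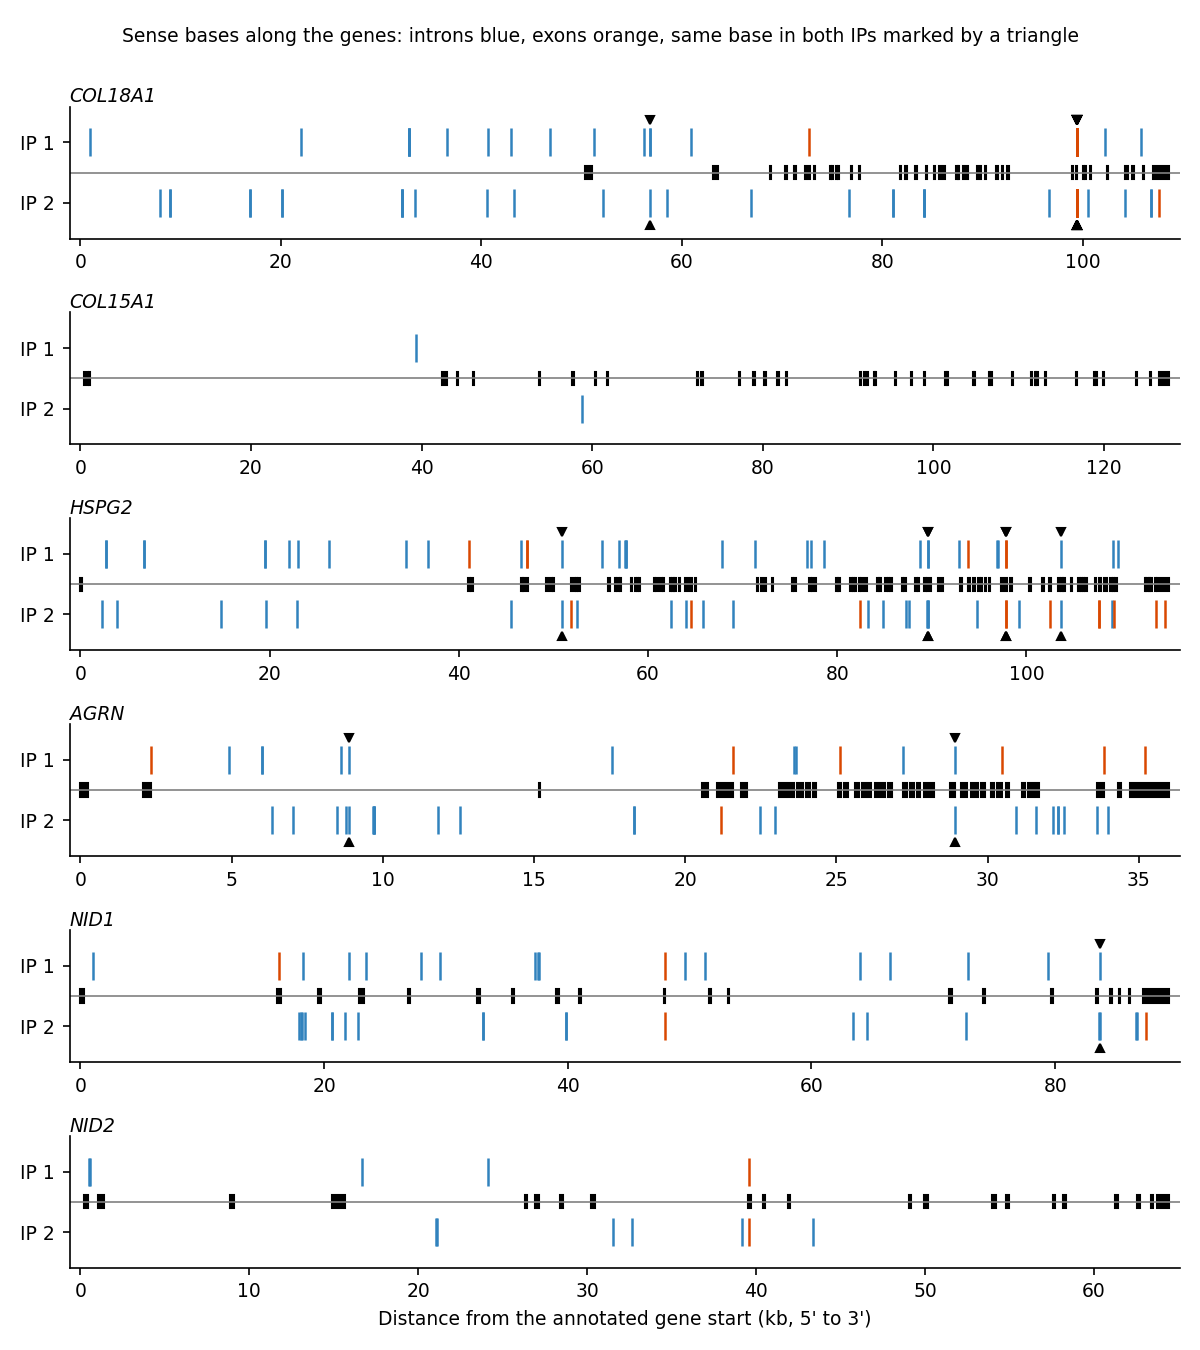
Sense bases along each gene from its annotated start (horizontal axis, kb, each gene on its own scale), with IP 1 above and IP 2 below the line and the exons of the principal transcript as black boxes. Blue ticks are intronic, orange ticks exonic, and triangles mark bases in both IPs, of which COL18A1 has 10 (9 of them adjoining), HSPG2 6, AGRN 2, NID1 1, and COL15A1 and NID2 0.

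HSPG2 (ENSG00000142798.19, chr1:21822245-21937297, minus strand, 115 kb) encodes perlecan, a proteoglycan core protein with many repeated domains, spread over 97 exons. With 38 sense sites (IP 1) and 34 (IP 2) it reached 3.30 and 2.96 per 10 kb, the 98.1st and 95.0th percentile. Unlike COL18A1, the gene kept this place when adjoining deletions were counted once (98.4th and 96.1st). It had more sites in the shorter list: per 100000 listed bases the numbers were 22.9 in IP 1 and 14.8 in IP 2. Substitutions led, with 24 and 20, beside 8 deleted bases and 6 insertions in each IP.

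Of the 6 bases of HSPG2 in both lists, 2 were substitutions in coding sequence, both in exon 73. Their surroundings are printed because they are the only shared coding substitutions of the 6 genes (29 bases each, GRCh38, minus strand, the listed base in capitals). The first is centred on codon 3284 of 4391 (chr1:21839394-21839422) and the second on codon 3256 (chr1:21839480-21839508).

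HSPG2 codon 3284: gccactagccctgcTgggcacgctgaggc

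HSPG2 codon 3256: cactgccctggcagCaccggctggaaggt

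At the base in codon 3284 (chr1:21839408), 4 of 12 tags were mutated in IP 1 and 5 of 7 in IP 2. At the base in codon 3256 (chr1:21839494) it was 4 of 10 and 3 of 7. Both bases also had unmutated tags in each IP, so the reference base was read there too.

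The other 4 shared bases of HSPG2 are intronic. A substitution in intron 78 (chr1:21833618), close to the start of exon 79, had 3 of 4 tags mutated in IP 1 and 4 of 4 in IP 2. A deletion of 2 bases in intron 61 (chr1:21847687-21847688) had 2 mutated tags at each base in each IP, among 5 and 6 tags in IP 1 and 3 and 5 in IP 2. These are the first 2 bases of the intron, beside exon 61. Whether reads across splice junctions bear on the sites at exon edges was not tested. A single deleted base in intron 9 (chr1:21886375), away from both exon edges, had 4 of 5 and 2 of 2.

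HSPG2 differed between the IPs in where its sites lay. IP 1 had 6 exonic and 32 intronic sites, and IP 2 had 11 and 23. Per kilobase, exons and introns were level in IP 1 (0.331 and 0.330), and exons were 2.56 times as dense in IP 2. The site with most tags was in IP 2, a substitution in exon 77 (chr1:21834782, codon 3539) with 6 of 25 tags mutated. In IP 1 the most mutated tags were at an intronic substitution (chr1:21880362), with 5 of 5. It is the first base of intron 16, beside exon 16. The 3′ UTR held 1 site, in IP 2 (chr1:21822690), with 4 of 9 tags mutated. LDLRAD2, which overlaps the 3′ end of HSPG2 on the opposite strand, had 0 sites in either IP.

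AGRN (ENSG00000188157.14, chr1:1020123-1056118, plus strand, 36.0 kb) encodes agrin, the heparan sulfate proteoglycan that gathers acetylcholine receptors at nerve-muscle junctions and is abundant in the glomerular basement membrane. For its length it was the most listed of the 6. Its 16 sense sites in IP 1 and 25 in IP 2 are 4.44 and 6.95 per 10 kb, at the 97.9th and 99.6th percentile of genes of 27.1 to 39.1 kb, whose median was 2 and 3. Its 2 shared bases are intronic. A substitution in intron 2 (chr1:1029009) had 7 of 8 tags mutated in IP 1 and 4 of 6 in IP 2. An insertion in intron 24 (chr1:1049062), close to the end of exon 24, had 3 of 5 and 2 of 3.

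The placement of the AGRN sites differed between the IPs. In IP 1, 6 of 16 were exonic and carried 84 of the 130 tags over its sites, while in IP 2 1 of 25 was exonic and carried 5 of 114 tags. In IP 1 the exonic sites were 1.41 times as dense as the intronic ones, and in IP 2 0.0977 times. The 5 coding sites of IP 1 were 4 insertions and 1 substitution. The insertion with most tags was in exon 34 (chr1:1053977, codon 1959), with 3 of 26 tags mutated. The coding insertions in exons 2, 6 and 34 were at the last base of the exon, and that in exon 29 was near its end. The intronic insertions of IP 1, in introns 9, 19 and 24, were also at or close to an exon edge. Whether reads across splice junctions bear on these insertions, and so on the exonic share of IP 1, was not tested. A substitution in the 3′ UTR (chr1:1055315) had 28 tags, the most over any site of the 6 genes in either IP, of which 5 were mutated (17.9%). This base also lies in AL645608.5, a gene annotated on the same strand. In IP 2 the strongest site was an intronic substitution (chr1:1054120, intron 34), with 11 of 11 tags mutated. The 2 lists thus hold AGRN at similar rank, with 2 bases in common and more intronic than exonic sites in both. By density and by tags, exons led in IP 1 and introns in IP 2, and most exonic sites were in IP 1.

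NID1 (ENSG00000116962.14, chr1:235975830-236065162, minus strand, 89.3 kb) encodes nidogen-1, also called entactin, which links laminin to collagen IV. Its 18 and 21 sense sites are 2.01 and 2.35 per 10 kb, at the 85.4th and 86.5th percentile of genes of 57.1 to 89.6 kb. All but 2 in each IP were intronic. One base was in both lists, a substitution in intron 16 (chr1:235981455) with 2 of 2 tags mutated in each. The most mutated tags were at intronic substitutions, 6 of 6 in IP 1 (chr1:236043143, intron 3) and 4 of 4 in IP 2 (chr1:236047262, intron 2). The deepest site of NID1 was a deleted base in the 3′ UTR in IP 2 (chr1:235977727), with 3 of 27 tags mutated (11.1%).

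NID2 (ENSG00000087303.17, chr14:52004803-52069228, minus strand, 64.4 kb) encodes nidogen-2, which overlaps nidogen-1 in binding and distribution. It stood near the middle of the same span bin, with 5 and 7 sense sites (53.4th and 57.9th percentile, against a bin median of 5 and 6). Every one of them had 2 tags, both mutated, and none was in both lists. RTRAF, which overlaps its 3′ end on the opposite strand, had no site inside NID2.

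Each nidogen had a coding site in exon 10 in either IP, at different bases. In NID1 an insertion in IP 1 (chr1:236017148, codon 752 of 1247, 3 of 4 tags mutated) lay 16 bases from a substitution in IP 2 (chr1:236017164, codon 746, 2 of 2). The insertion was listed at the last base of exon 10. In NID2 a substitution in IP 1 (chr14:52029669, codon 760 of 1375) lay 16 bases from one in IP 2 (chr14:52029653, codon 765), each with 2 of 2 tags mutated. Both stretches are printed to show that the bases differ (29 bases each, GRCh38, minus strand, chr1:236017148-236017176 and chr14:52029647-52029675). In NID1 the first capital is the base of IP 2 and the last that of IP 1, and in NID2 the first is that of IP 1.

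NID1 exon 10: ccagttttcagaTgagggaacgtgtgtgG

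NID2 exon 10: ctccggGgaatccttgctatgaTgggagc

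The pair of distances was noticed after the positions were seen, and it is given as a position only.

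**Figure D3:**
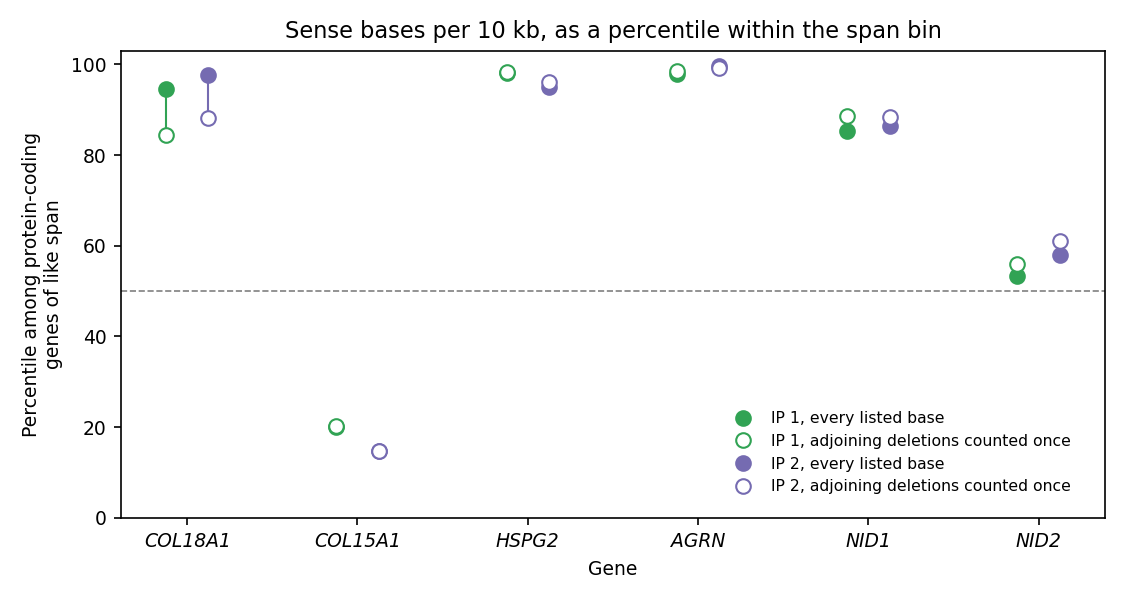
Sense bases per 10 kb of each gene as a percentile (vertical axis) among protein-coding genes of like span, green for IP 1 and purple for IP 2, with the dashed line at the middle of the bin. Filled points count every listed base and open points count adjoining deletions once, which lowers COL18A1 from 94.5 and 97.7 to 84.4 and 88.1.

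Set side by side, the percentiles put AGRN, HSPG2 and COL18A1 highest in both IPs, then NID1, NID2 and COL15A1. The median of the 6 was 89.9 in IP 1 and 90.7 in IP 2, where the median gene of a bin is by construction at the middle. With adjoining deletions counted once, NID1 (88.7 and 88.5) passed COL18A1. The order among the highest genes differed between the IPs, whereas NID2 and COL15A1 were the lowest of the 6 in both. Each pair of relatives was unequal: COL18A1 had 27 and 38 sense sites against 1 and 1 for COL15A1, and NID1 had 18 and 21 against 5 and 7 for NID2.

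Over the 6 genes, exons held 25 of 105 sense sites in IP 1 (23.8%, interval 16.0 to 33.1%) and 25 of 126 in IP 2 (19.8%, 13.3 to 27.9%). Over all protein-coding genes the share was 9.36% and 8.77%. The 9 deleted bases of COL18A1 carry part of this: with adjoining deletions counted once the share was 18.7% and 15.5%, against 8.94% and 8.34% over all protein-coding genes. For the other 5 genes the share was 19.2% and 17.0% over every listed base, and 20.3% and 17.3% with adjoining deletions counted once. Merged exons make up 10.4% of the span of the 6 genes and 7.54% over all protein-coding genes. Per base, exons were listed 2.69 and 2.13 times as densely as introns in the 6 genes, against 1.27 and 1.18 times over all. The exonic sites of the 6 genes were 24 coding and 1 in a 3′ UTR in IP 1, and 22 and 3 in IP 2, with 0 in a 5′ UTR in either.

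Exonic sites of the 6 genes also had more tags. The median was 4 tags at exonic and 2 at intronic sites in both IPs. Sites with 10 tags or more numbered 6 in IP 1, all of them exonic, and 12 in IP 2, of which 5 were exonic. They are 5.71% and 9.52% of the sense sites, against 1.49% and 1.58% over all protein-coding genes. Conversely, sites with 2 tags, both mutated, made up 51.4% and 48.4%, below the 82.7% and 83.3% of the whole lists. Unlike the sense sites of the 6 genes, the whole lists include opposite-strand bases and bases outside protein-coding genes.

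**Figure D4:**
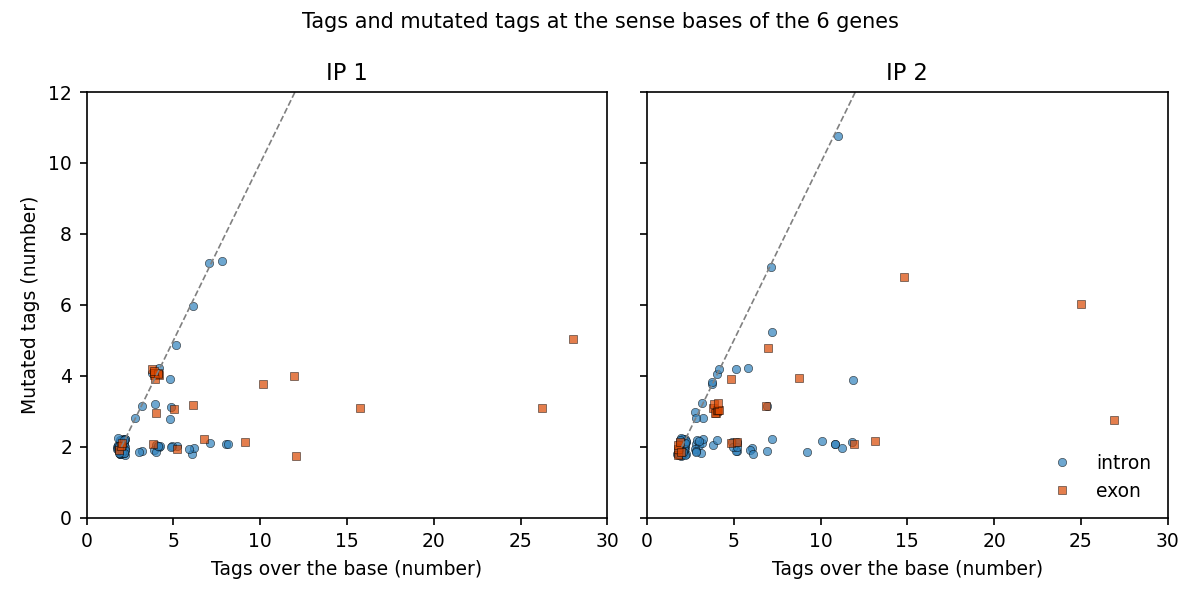
Tags over each sense base of the 6 genes (horizontal axis) against mutated tags (vertical axis), IP 1 left and IP 2 right, with circles for introns, squares for exons, a small random offset so that equal points can be told apart, and a dashed line where all tags are mutated. Points crowd at 2 tags, both mutated (51.4% left and 48.4% right), and the deepest, at 28 tags in IP 1 and 27 in IP 2, are exonic and lie well under the line.

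The bases in both lists numbered 19, in 10 separate stretches, of which COL18A1 had 2, HSPG2 5, AGRN 2 and NID1 1. They are 18.1% of the sense sites of IP 1 (11.3 to 26.8%) and 15.1% of IP 2 (9.33 to 22.5%), against 4.96% and 4.11% over all protein-coding genes. Both intervals count the 9 bases of the COL18A1 deletion singly. With adjoining deletions counted once the shared sites are 11.0% and 9.71%, against 5.19% and 4.33%. All 19 had the same type of change in both IPs, 11 were exonic and 8 intronic, and tags over them ran from 2 to 12 in IP 1 and from 2 to 7 in IP 2. Every tag was mutated in both IPs at 2 of the 19, the substitutions of COL18A1 and NID1, each with 2 tags. The other 17 had at least 1 unmutated tag in 1 IP or in both. How these changes arose was not tested.

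The types of change differed between the IPs. Substitutions were 58.1% of the sense sites of the 6 genes in IP 1 and 50.8% in IP 2, against 67.9% and 67.1% over all protein-coding genes. Deleted bases were 25.7% in IP 1 and 40.5% in IP 2, where all protein-coding genes had 25.7% and 26.5%. Of the 51 deleted bases of IP 2, COL18A1 held 27 and AGRN 10. Insertions were 16.2% and 8.73%, against 6.43% and 6.35%, and AGRN held 7 of the 17 in IP 1. Those of AGRN in IP 1 were at or close to an exon edge of its principal transcript. Insertions near an exon edge were also listed in HSPG2 in both IPs, in NID1 in IP 1, and in COL18A1 and AGRN in IP 2. Other insertions lay away from exon edges. Whether reads across splice junctions bear on these insertions, or on the exonic shares, was not tested.

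On the strand opposite to their gene, the 6 genes had 12 listed bases in IP 1 (10.3% of 117, interval 5.41 to 17.2%) and 30 in IP 2 (19.2% of 156, 13.4 to 26.3%). Over all protein-coding genes these shares were 11.1% and 15.2%, within both intervals. These sites were thin: all 12 in IP 1 and 28 of 30 in IP 2 had 2 tags, both mutated. HSPG2 and NID1 had 9 each in IP 2, after 2 and 3 in IP 1. On both strands 4 bases were listed, of which 3 were in HSPG2 and 1 in NID1. Sense sites that either list also holds on the opposite strand were 1.90% (IP 1) and 2.38% (IP 2) in the 6 genes, near the 1.38% and 1.44% over all protein-coding genes. One was the deepest HSPG2 base (chr1:21834782), with 2 of 2 tags on the opposite strand in IP 2 beside the 6 of 25 on the sense strand. One opposite-strand base of HSPG2 was in both lists (chr1:21880449), with 2 of 2 tags mutated in IP 1 and 4 of 4 in IP 2. The labels do not state whether the libraries kept the strand of the RNA.

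The rest of the basement membrane gives the setting for these values. Of 56 other genes (collagen IV and laminin chains, receptors, enzymes and minor components), 50 were named in both IPs (89.3%), 4 in 1 IP and 2 in neither. A shared sense base was found in 16 (28.6%), and the median percentile of the 56 was 60.0 in IP 1 and 67.4 in IP 2. Over all protein-coding genes 55.4% were named in both IPs and 14.1% had a shared sense base. In the span bin of COL18A1 (89.6 to 159 kb) these shares were 84.4% and 28.9%, near those of the 56, whose spans vary. All 12 laminin chains were named in both IPs, 5 with a shared base, at a median percentile of 77.2 and 74.0. Of 6 collagen IV chains 5 were named in both, 2 with a shared base, at a median percentile of 33.1 and 18.6. The 4 with most shared bases were COL4A2 (75 and 83 sense sites, 7 shared bases), the lysyl oxidase LOXL2 (47 and 63, 3 shared), the laminin chain LAMC3 (22 and 30, 3 shared) and the fibulin EFEMP1 (9 and 22, 3 shared). COL18A1, with 10 shared bases in 2 stretches, and HSPG2, with 6 in 5, are of the same order as COL4A2 by number of bases only. The separate stretches of COL4A2 were not counted, and it is the longer gene, at 207 kb. The 2 genes in neither list were the collagen IV chain COL4A3 and the collagen receptor DDR1.

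Placement over intron, coding sequence and both UTRs was also compared with that of 1088 protein-coding genes that had at least 20 sense sites in both IPs, by the distance over the 8 shares of the 2 IPs. COL18A1 and HSPG2 met this minimum in both IPs. The nearest to HSPG2 was LAMA5, the laminin alpha 5 chain (distance 0.111), with 12.5% of its sense sites exonic in IP 1 and 24.2% in IP 2, beside 15.8% and 32.4% for HSPG2. FBN1, the microfibril protein fibrillin-1, followed at 0.136. The nearest to COL18A1 were the mechanically gated channel PIEZO1 (0.187) and the calcium channel subunit CACNA1H (0.223). LAMA5 and HSPG2 both had a larger exonic share in IP 2 than in IP 1, whereas COL18A1 had 37.0% in IP 1 and 26.3% in IP 2. LAMA5 was picked by these same shares, so its likeness to HSPG2 follows from the choice and is no separate result. The shares of COL18A1, and so its nearest genes, rest on the 9-base deletion: counted once, it leaves 2 of 17 sites exonic in IP 1 (11.8%) and 2 of 22 in IP 2 (9.09%), and the gene falls under the minimum of 20 sites in IP 1.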

How the data were processed

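RNA immunoprecipitation sequencing of HK-2 cells comprised 2 PARP1 IPs and 2 inputs, and the groups follow the sample titles. The lists of the IPs were analysed, 1 for each, and the inputs were not analysed here. Per the labels' protocols, random primers and amplification were used for paired-end libraries. Per the submitters' processing notes the tools were bcl2fastq and TopHat2 and the build GRCh38. The versions, the site caller, duplicate removal and read assignment at repeats were not given in the sources used here.

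Per the file headers, the authors counted at each base the tags (whole-number counts) and those mutated, and gave an FDR, which is read like an adjusted p-value. The authors' region class and gene identifier were used as deposited. Every listed base had at least 2 tags, so a transcript without mismatches is not listed, and the tags summed over listed bases are not the library's depth.

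Spans, exons and sequences came from GENCODE release 29, where all 6 identifiers matched. The principal transcript is the APPRIS principal with the longest coding sequence. Percentiles are mid-ranks of the density of sense sites (per 10 kb), taken within the gene's own of 10 span bins. The steps ran in Python 3.11.15 with pandas 2.3.3, numpy 2.4.6 and scipy 1.17.1, and the matching of positions was tested on simulated data. Named genes were the 6, the 4 other basement membrane genes with most shared bases, up to 4 in neither list, the 2 nearest in placement to each gene with at least 20 sense sites in both IPs, and overlapping genes. Single sites named are those in both lists and those with most mutated tags for each gene and IP. Other single sites (deepest, exonic) were chosen after their values were seen. The members and lists were chosen with earlier results of these data known. Alternatives were a stricter FDR, at least 3 mutated tags, substitutions alone, assignment by annotated span, looser matching of bases, 20 span bins, exonic density, each IP alone and, added after seeing the data, adjoining deletions counted once, the COL18A1 coding deletion left out, and the other 5 genes without COL18A1.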

Additional observations from a re-analysis of the deposited data

How the results depend on the processing

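All 6 genes were named in each IP taken alone. Over the alternatives run 4 to 6 were named in both IPs and 3 or 4 had a shared sense base. COL15A1 had 0 sense sites in either IP at an FDR below the most common value, and COL15A1 and NID2 had 0 with at least 3 mutated tags. Numbers of sites fell with every stricter rule. The 105 sense sites of IP 1 became 56 at the stricter FDR, 29 with at least 3 mutated tags and 61 with substitutions alone, and the 126 of IP 2 became 79, 31 and 64. The exonic share of 23.8% in IP 1 became 35.7%, 58.6% and 14.8% in the same order, and the 19.8% of IP 2 became 51.6% with at least 3 mutated tags. The same share over all protein-coding genes was 14.0%, 14.8% and 7.09% in IP 1 and 13.1% with at least 3 mutated tags in IP 2, lower than in the 6 genes each time. Part of this was the coding deletion of COL18A1. Without that gene the shares were 26.3%, 36.8% and 15.7% in IP 1, and 30.0% with at least 3 mutated tags in IP 2. The 19 shared bases became 6 with substitutions alone, and 10 with adjoining deletions counted once or without the COL18A1 coding deletion, both chosen after seeing the data. Of the 50 other basement membrane genes named in both IPs, 21 were left with at least 3 mutated tags. Depth limits all of this: at a median of 2 tags a site, a base missing from 1 list was not shown to be unmutated there. No paired analysis was possible because the inputs, which carry the same replicate numbers, were not analysed here.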
